A study of Mus musculus with 70 samples.

Results

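The comparison described here is the effect of losing the long Capicua isoform in 2 regions of the adult mouse brain, set against each other. It used the 32 of 70 libraries that came from cortex or cerebellum of mice aged 12 weeks and carried the genotype label WT or Cic-L-KO, 8 libraries in each of 4 groups. Cic-L-KO mice lack the long isoform, and the WT mice were littermates pooled from the Cic-L-KO line and from the Cic-S-KO line, which lacks the short isoform. Strain, sex, zygosity and how the isoform was removed are not given in the sources used here, nor are the litters and animals behind each library, so p-values measure the spread between libraries of a group. All 32 libraries carry batch 2 in the labels, which leaves no batch within the comparison. The quantity tested was the difference between the regions, (Cic-L-KO minus WT in cortex) minus (Cic-L-KO minus WT in cerebellum), on the log2 scale: a positive value means that the effect was more positive in cortex.

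Capicua is a DNA-binding repressor with a high mobility group box. It binds short octamers such as TGAATGAA and is released from its targets when the RAS to ERK cascade is active. It forms a complex with ATXN1 and ATXN1L, and is linked to spinocerebellar ataxia through ATXN1. The long and short isoforms start from separate promoters and differ at the amino terminus. Cortex holds mostly excitatory projection neurons, inhibitory interneurons and glia, whereas cerebellum is dominated by granule cells, with Purkinje cells and Bergmann glia as its other characteristic types.

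Cic itself (ENSMUSG00000005442, chromosome 7, 25267704 to 25294159 on the + strand of GRCm38, the build to which all positions refer) was the first gene examined. Both of its RefSeq promoters (GRCm38.p6) are shown because the isoforms begin at different starts. Each stretch is the 250 bases before a start, 5′ to 3′ in the direction of transcription, with no base in capitals because neither holds a Capicua octamer.
Cic, upstream start, chr7:25267449-25267698, + strand: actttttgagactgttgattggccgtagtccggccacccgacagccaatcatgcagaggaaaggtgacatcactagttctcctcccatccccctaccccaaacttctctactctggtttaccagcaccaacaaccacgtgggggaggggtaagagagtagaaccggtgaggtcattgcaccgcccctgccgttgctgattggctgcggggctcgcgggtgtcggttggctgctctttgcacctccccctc
Cic, downstream start, chr7:25281929-25282178, + strand: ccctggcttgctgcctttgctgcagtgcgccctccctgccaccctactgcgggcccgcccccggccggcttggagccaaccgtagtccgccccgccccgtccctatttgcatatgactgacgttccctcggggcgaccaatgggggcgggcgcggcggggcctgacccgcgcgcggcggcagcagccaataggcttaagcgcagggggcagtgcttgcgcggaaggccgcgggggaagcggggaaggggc

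Counts per gene do not separate the isoforms, so they cannot show the loss of the long one, and the labels were not checked by this gene. In cortex the lowest, median and highest normalised levels of Cic were 155, 166 and 179 CPM (TMM-normalised counts scaled to library size) in WT and 277, 313 and 327 CPM in Cic-L-KO. The cortical groups did not overlap. In cerebellum they were 167, 183 and 207 CPM in WT and 188, 204 and 221 CPM in Cic-L-KO, with overlap between the groups. Total Cic RNA therefore rose in both regions, by 0.88 ± 0.04 (log2 fold change ± SE, n = 8 per group, edgeR adjusted p = 5.0e-18) in cortex and by 0.14 ± 0.04 (edgeR adjusted p = 0.0184) in cerebellum, and the rise was larger in cortex (difference 0.74 ± 0.06, edgeR adjusted p = 4.1e-11). With GC content adjusted the cerebellar value was 0.09 and did not pass (edgeR adjusted p = 0.179). Atxn1 (chromosome 13, 45549755 to 45965008), the gene of one partner protein, followed the same order: its level rose by 0.90 ± 0.06 in cortex and by 0.36 ± 0.06 in cerebellum, a difference of 0.54 ± 0.09 (edgeR adjusted p = 2.5e-05). Atxn1l, the gene of the other partner, passed no test, with log2 fold changes of 0.01 ± 0.04 and 0.00 ± 0.04.

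Total counts ran from 20730808 to 31011694 per library over the 32 libraries. The region labels matched the defining markers: Gabra6, Fat2, Cbln3 and Pcp2, which mark granule and Purkinje cells, averaged at most 1.15 CPM in each cortical group and at least 136 CPM in each cerebellar group, while the cortical factor Tbr1 averaged 169 CPM in WT cortex and 0.783 CPM in WT cerebellum. Replicates 1 to 4 expressed Y-linked genes and replicates 5 to 8 did not, in all 4 groups alike. In 3 cerebellar libraries the summed level of 4 brainstem markers was at least 109.7 CPM, in replicates 3 and 4 of Cic-L-KO and replicate 1 of WT, against at most 72.4 CPM in the other 13. Where leaving out these 3 libraries ended a call on a named gene or moved a called value by over 1.5 times, the value without them stands beside the result. These are bulk tissue libraries, in which fewer cells of a type and less RNA per cell cannot be told apart. The level summed over 7 choroid plexus and meningeal markers varied widely within groups. Its lowest, median and highest values were 39.9, 59.7 and 630 CPM in WT cortex and 38.8, 441 and 1359 CPM in Cic-L-KO cortex. In cerebellum they were 64.7, 1440.5 and 2982 CPM in WT and 490, 2041 and 3334 CPM in Cic-L-KO. Of the 7, 2 were called higher and 1 lower in Cic-L-KO cortex. The part of this tissue in the results was not tested.

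Of 17435 genes tested, 4311 (24.7%) had a Cic-L-KO effect that differed between the regions at an adjusted p under 0.05, 2209 (12.7%) of them more positive in cortex and 2102 (12.1%) more negative there. The response was broader in cortex, where 7382 genes (42.3%) changed, 3587 up and 3795 down, than in cerebellum, where 3920 (22.5%) changed, 1897 up and 2023 down. The precision was alike, with a median SE of 0.0818 in cortex and 0.0814 in cerebellum on the log2 scale, while the median absolute log2 fold change was 0.187 and 0.129. Among the genes with a difference, 2687 (15.4% of those tested) changed in cortex without passing the test in cerebellum, 669 (3.84%) changed in cerebellum without passing it in cortex, and 422 (2.42%) changed in both regions in opposite directions. Another 278 changed the same way with a larger effect in cortex, 27 the same way with a larger effect in cerebellum, and 228 passed the test of the difference alone. Of the 2240 genes called in both regions, 1818 (81.2%) moved the same way and 422 (18.8%) did not. The 2 sets of log2 fold changes had a Pearson correlation across genes of 0.14 over all 17435 genes tested. Over the 12079 genes with a mean above 2 CPM in both regions of Cic-S-KO mice it was 0.31. Genes are not independent, and the 2 sets were measured in separate libraries of each region. At the threshold itself, Gsk3b was the last gene inside (difference -0.14, adjusted p = 0.04996) and Gm36529 the first outside (difference -0.90, adjusted p = 0.05004).

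**Figure D1:**
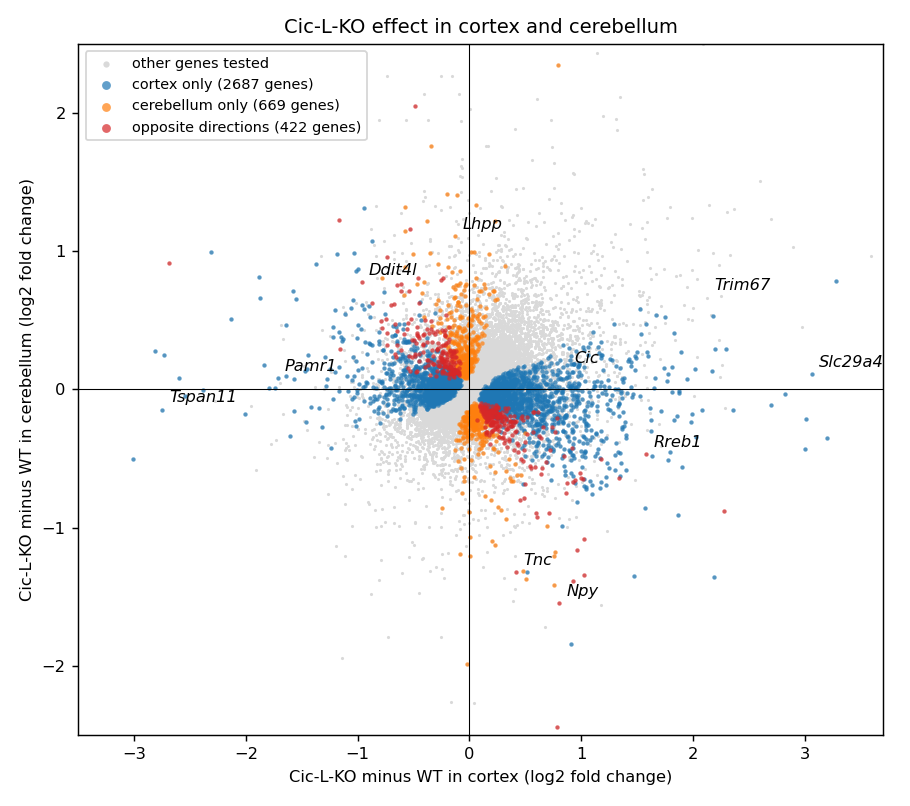
Log2 fold change of Cic-L-KO against WT in cortex (x axis) and cerebellum (y axis), 1 point per gene tested, with 14 genes beyond the axes; blue marks genes that changed in cortex and differed between regions without passing in cerebellum, orange the reverse, and red genes that changed in opposite directions. The cloud is wider along the cortical axis, and Npy and Rreb1 lie at the lower right, with higher levels in cortex and lower levels in cerebellum.

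The genes with the smallest p-values for the difference were mostly cortical responses. Slc29a4 (chromosome 5, 142692512 to 142722490), which encodes a plasma membrane monoamine transporter, had the smallest p of the genes more positive in cortex. Its lowest, median and highest cortical levels were 6.99, 8.37 and 13.2 CPM in WT and 67.1, 77.1 and 89.4 CPM in Cic-L-KO. In cerebellum they were 37.9, 46.5 and 49.99 CPM in WT and 41.1, 49.5 and 59.9 CPM in Cic-L-KO. The cortical groups lay far apart and the cerebellar groups overlapped, and every Cic-L-KO cortical library was above the WT and Cic-L-KO cerebellar libraries although WT cortex was below them. The log2 fold change was 3.06 ± 0.11 in cortex and 0.11 ± 0.09 in cerebellum (difference 2.95 ± 0.14, edgeR adjusted p = 1.1e-15).

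The long noncoding RNA gene 5930438M14Rik (chromosome 13, 101232127 to 101247551) had a mean of 1.42 ± 0.327 CPM (SD, n = 8) in WT cortex and 13.1 ± 1.800 CPM in Cic-L-KO cortex, against 1.297 ± 0.126 and 1.01 ± 0.293 CPM in cerebellum. Only the cortical change passed the test (difference 3.55 ± 0.20). Epb41, which encodes protein 4.1 of the membrane skeleton, went from 60.02 ± 4.34 to 118 ± 5.700 CPM in cortex, while in cerebellum, where the group means were 333 ± 27.5 and 324 ± 29.3 CPM, the change was -0.04 ± 0.05. Trim67, a brain ubiquitin ligase gene, rose in both regions without overlap, by 2.12 ± 0.08 in cortex and 0.66 ± 0.06 in cerebellum (difference 1.46 ± 0.10, edgeR adjusted p = 5.4e-13). The cortical groups did not overlap for these genes, as for 13.1% of all genes tested, and the cerebellar groups did not overlap for 3.62%.

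In the other direction, Tspan11 (chromosome 6, 127887589 to 127953977), a tetraspanin gene, had the smallest p. Its cortical levels were 8.78, 10.2 and 13.5 CPM in WT and 1.105, 1.37 and 2.28 CPM in Cic-L-KO, and its cerebellar levels 28.7, 35.7 and 41.5 and 27.03, 32.5 and 38.5 CPM (lowest, median and highest). The cortical fall was -2.75 ± 0.12 on the log2 scale, against -0.15 ± 0.09 in cerebellum (difference -2.61 ± 0.15, edgeR adjusted p = 1.2e-14). Pamr1, a gene for a secreted peptidase-like protein, ran at 45.3, 47.8 and 52.1 CPM in WT cortex and 12.02, 14.5 and 17.7 CPM in Cic-L-KO cortex, with cerebellar means of 6.402 ± 1.26 and 6.79 ± 0.918 CPM. Here too the cortical groups did not overlap and no cerebellar Cic-L-KO library lay above the WT range. Sms, the gene of spermine synthase, fell by 0.50 ± 0.03 in cortex and had a log2 fold change of 0.03 ± 0.03 in cerebellum. Lhpp (chromosome 7, 132610638 to 132706420), a histidine phosphatase gene, was the reverse case. It ranged from 19.1 to 25.7 CPM in WT cerebellum and from 44.02 to 56.4 CPM in Cic-L-KO cerebellum, while its cortical ranges, 10.7 to 13.4 and 9.37 to 13.1 CPM, overlapped. Its cerebellar rise was 1.11 ± 0.06 and its cortical log2 fold change -0.13 ± 0.07 (difference -1.24 ± 0.09, edgeR adjusted p = 1.1e-12).

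**Figure D2:**
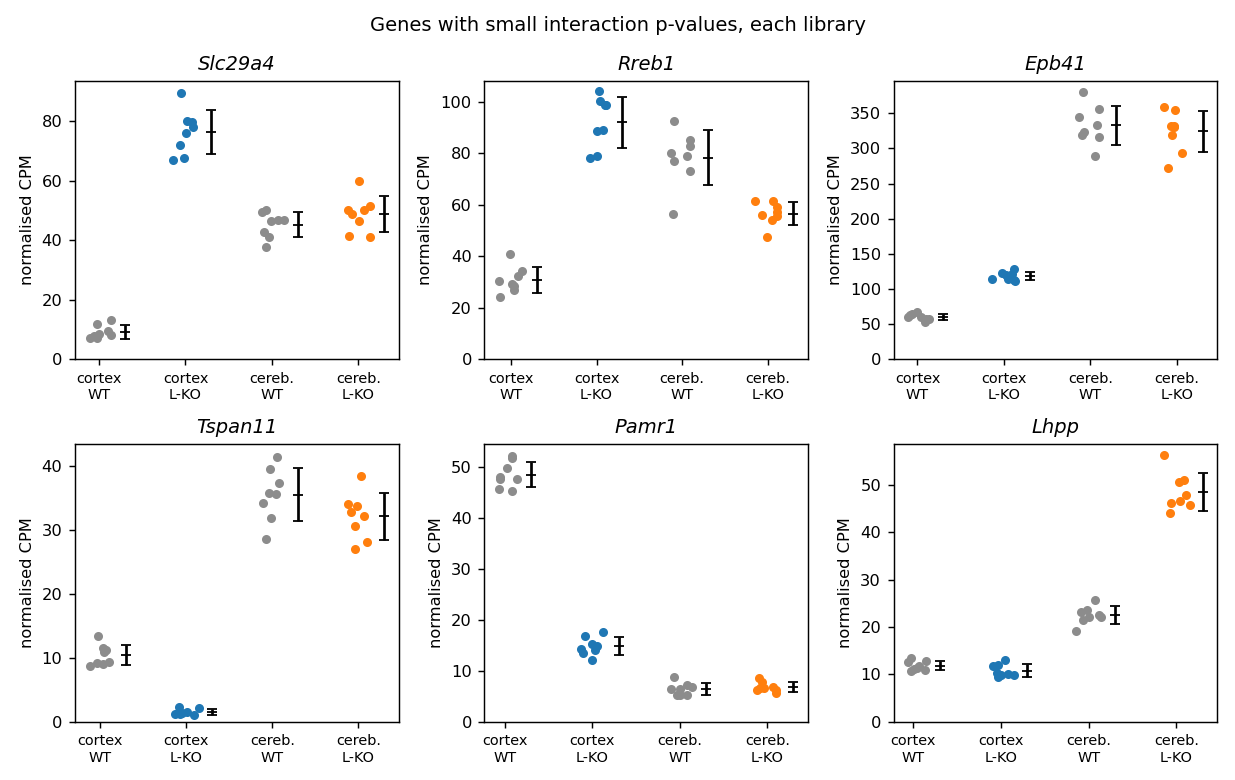
Normalised CPM of 6 genes with small p-values for the region difference, 1 point per library in 4 groups of 8 (grey WT, blue and orange Cic-L-KO), with the mean and SD as a bar beside each group and the y axis from 0. Slc29a4, Rreb1 and Epb41 are higher and Tspan11 and Pamr1 lower in Cic-L-KO cortex without overlap, whereas Lhpp is shifted in cerebellum.

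A missed threshold does not show that a gene stayed level, so a narrower group was also counted: a log2 fold change beyond 0.5 in size in one region, a 95% interval in the other that lay inside -0.3 to 0.3, and a WT mean of at least 1 CPM in both. For cortex this left 233 genes (1.34% of those tested), 149 higher and 84 lower, and for cerebellum 24 (0.138%), 19 higher and 5 lower. The cortical genes that rose most were Layn, a hyaluronan receptor gene (1.77 ± 0.11 in cortex, 0.06 ± 0.11 in cerebellum), Adamts18, a secreted metalloproteinase gene (1.53 ± 0.14 and -0.05 ± 0.12), and Zfp57, a zinc finger gene known for guarding imprints (1.39 ± 0.08 and 0.08 ± 0.09). They were followed by the noncoding A230057D06Rik at 1.36 ± 0.12, by Mdga1, whose protein binds neuroligins, at 1.36 ± 0.09, and by Mamdc2 at 1.25 ± 0.13. Mdga1 levels ran from 22.9 to 40.2 CPM in WT cortex and from 66.9 to 88.1 CPM in Cic-L-KO cortex, and from 20.97 to 30.3 and 20.3 to 28.4 CPM in cerebellum.

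The cortical genes that fell most within this narrower group were Mybpc3 (-2.38 ± 0.41), Pamr1 (-1.71 ± 0.08), Grm2 (-1.57 ± 0.10), Scube1 (-1.27 ± 0.08), Epop (-1.17 ± 0.07) and Mettl27 (-1.05 ± 0.11). Grm2 encodes metabotropic glutamate receptor mGluR2, a presynaptic autoreceptor. Its lowest, median and highest levels were 56.2, 64.5 and 77.9 CPM in WT cortex and 17.2, 20.6 and 33.2 CPM in Cic-L-KO cortex. They were 17.9, 19.97 and 24.3 CPM in WT cerebellum and 19.8, 21.5 and 25.4 CPM in Cic-L-KO cerebellum. Only the cortical groups were separate. Mybpc3, a myosin-binding protein gene, was measured near the lower limit in cortex, at 1.05 ± 0.641 CPM in WT and 0.206 ± 0.148 CPM in Cic-L-KO, against 41.2 ± 6.24 and 41.02 ± 5.51 CPM in cerebellum.

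Among the cerebellar genes of the narrower group, the largest rises after Lhpp were those of Bcl11b (0.76 ± 0.19), Dlgap2 (0.75 ± 0.14), Shisa7 (0.71 ± 0.06), Adra1b (0.69 ± 0.11) and Eif4ebp1 (0.63 ± 0.10). Shisa7, an auxiliary subunit gene of GABA-A receptors, ran from 9.73 to 12.9 CPM in WT and from 15.8 to 20.1 CPM in Cic-L-KO cerebellum, with cortical means of 134 ± 10.6 and 145 ± 4.43 CPM. Bcl11b, a transcription factor gene of forebrain projection neurons, was near its floor in cerebellum: 1.25, 1.73 and 3.25 CPM in WT (lowest, median and highest) and 2.03, 2.61 and 5.07 CPM in Cic-L-KO, against means of 91.5 ± 10.97 and 89.8 ± 6.79 CPM in cortex. The highest cerebellar values of Bcl11b, and of the postsynaptic scaffold gene Dlgap2 at 4.02 CPM, came from Cic-L-KO replicate 4, which was also highest in brainstem markers at 174.7 CPM. Without the 3 libraries high in brainstem markers the cerebellar log2 fold change was 0.71 for Bcl11b (edgeR adjusted p = 0.00432), 0.62 for Dlgap2 (4.3e-04) and 0.71 for Shisa7 (2.0e-10).
The 5 genes lower in cerebellum were Vipr1, a receptor gene for vasoactive intestinal peptide (-0.89 ± 0.16, from 3.39 ± 0.808 to 1.84 ± 0.529 CPM), Abca8b (-0.57 ± 0.10), Mctp1 (-0.52 ± 0.06), Gm5148 (-0.51 ± 0.12) and Cnksr3 (-0.50 ± 0.08). Without the 3 libraries the region difference of Gm5148 did not pass (edgeR adjusted p = 0.0598). For Vipr1 no library of the cerebellar groups overlapped, while in cortex its means were 35.6 ± 5.14 and 35.5 ± 5.43 CPM.

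Opposite changes were found in 422 genes, 234 of them higher in cortex and lower in cerebellum and 188 the reverse, and 398 had a WT mean of at least 1 CPM in both regions. The changes were modest, with a median absolute log2 fold change of 0.25 in cortex and 0.23 in cerebellum, and 41 reached an absolute value of 0.5 in both regions and in the difference. In 16 genes (0.0918% of those tested) the groups overlapped in neither region, 6 of them higher in cortex. Npy (chromosome 6, 49822710 to 49829507), which encodes neuropeptide Y, an inhibitory peptide of interneurons, had the largest opposite change by the smaller of its 2 effects. In cortex its lowest, median and highest levels were 55.1, 62.2 and 71.4 CPM in WT and 95.8, 108 and 119.6 CPM in Cic-L-KO, and in cerebellum 6.26, 8.22 and 9.99 CPM in WT and 1.55, 2.63 and 3.93 CPM in Cic-L-KO. All 8 Cic-L-KO libraries were above the WT range in cortex and below it in cerebellum. The log2 fold changes were 0.81 ± 0.08 and -1.55 ± 0.12 (difference 2.35 ± 0.14, edgeR adjusted p = 1.2e-13).

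Among other genes higher in cortex and lower in cerebellum, Rreb1, which encodes a zinc finger factor bound to RAS-responsive elements, had cortical levels of 24.2, 29.8 and 40.8 CPM in WT and 78.1, 93.9 and 104 CPM in Cic-L-KO and cerebellar levels of 56.2, 79.6 and 92.5 and 47.7, 56.7 and 61.3 CPM. Its cortical groups were separate, and 4 of 8 cerebellar Cic-L-KO libraries lay below the WT range. Sema5a, an axon guidance gene, changed by 0.66 ± 0.05 in cortex and -0.27 ± 0.05 in cerebellum, and Samd14 by 0.74 ± 0.06 and -0.27 ± 0.05, both without overlap in either region. Syt6, a synaptotagmin gene expressed in deep cortical layers, went from 25.4 ± 4.495 to 38.3 ± 3.33 CPM in cortex and from 10.02 ± 1.78 to 5.37 ± 2.17 CPM in cerebellum. Its 2 highest Cic-L-KO values in cerebellum were those of replicates 3 and 4, high in brainstem markers, and without the 3 such libraries its cerebellar log2 fold change went from -0.89 to -1.23. The rest of the 6 with the largest opposite changes of this pattern were all low: Gm44559 changed by 0.99 ± 0.17 in cortex and -0.60 ± 0.17 in cerebellum, Pdlim3 by 0.86 ± 0.18 and -0.75 ± 0.18, Gm37776 by 0.95 ± 0.22 and -0.66 ± 0.24, and Gm44103 by 0.65 ± 0.17 and -0.57 ± 0.15. Without the 3 libraries high in brainstem markers the cerebellar change of Gm37776 was -0.71 and did not pass (edgeR adjusted p = 0.0651). Tnc, the gene of the matrix protein tenascin C, fell in cerebellum, from 19.99, 23.9 and 36.3 CPM (lowest, median and highest) in WT to 8.100, 10.8 and 12.1 CPM in Cic-L-KO, and rose in cortex from a mean of 6.22 ± 1.27 to 8.33 ± 1.000 CPM.

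Among genes lower in cortex and higher in cerebellum, Sgtb, a co-chaperone gene of neurons, was separate in both regions. Its cortical levels were 210.5, 226 and 241 CPM in WT and 170.4, 184 and 199 CPM in Cic-L-KO, and its cerebellar levels 81.3, 87.2 and 90.6 and 107, 114 and 124 CPM. Arhgap32, which encodes a GTPase-activating protein of synapses, fell by 0.66 ± 0.04 in cortex and rose by 0.24 ± 0.04 in cerebellum. Igfbp6, an insulin-like growth factor binding protein gene, fell from 43.97 ± 4.42 to 19.8 ± 2.31 CPM in cortex and rose from 15.7 ± 1.43 to 19.2 ± 2.51 CPM in cerebellum, and its relative Igfbp4 changed by -0.67 ± 0.08 and 0.47 ± 0.09. Pfkl, the gene of a phosphofructokinase of glycolysis, changed by -0.40 ± 0.03 and 0.16 ± 0.03. Ddit4l, whose protein inhibits mTORC1 signalling, ran from 24.2 to 33.5 CPM in WT cortex and from 12.6 to 15.2 CPM in Cic-L-KO cortex, while in cerebellum it was low, at 1.25 ± 0.400 and 2.12 ± 0.766 CPM. Fam198b, with 5.94 ± 1.13 and 3.89 ± 0.629 CPM in cortex and 5.77 ± 0.804 and 9.46 ± 1.36 CPM in cerebellum, had WT levels of the same order in both regions and separate groups in cerebellum. Cdkl4 changed by -0.65 ± 0.11 and 0.76 ± 0.14, and the peptidase gene Dpp4 by -0.67 ± 0.14 and 0.62 ± 0.14. The nicotinic receptor gene Chrna3 (-0.87 ± 0.24 and 0.63 ± 0.21) and the zinc finger gene Prdm6 (-0.70 ± 0.26 and 0.61 ± 0.23) lay near 1 CPM in cortex, and without the 3 libraries high in brainstem markers the cerebellar changes of Chrna3, at 0.46, and Prdm6, at 0.70, did not pass (edgeR adjusted p = 0.0980 and 0.0566).

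**Figure D3:**
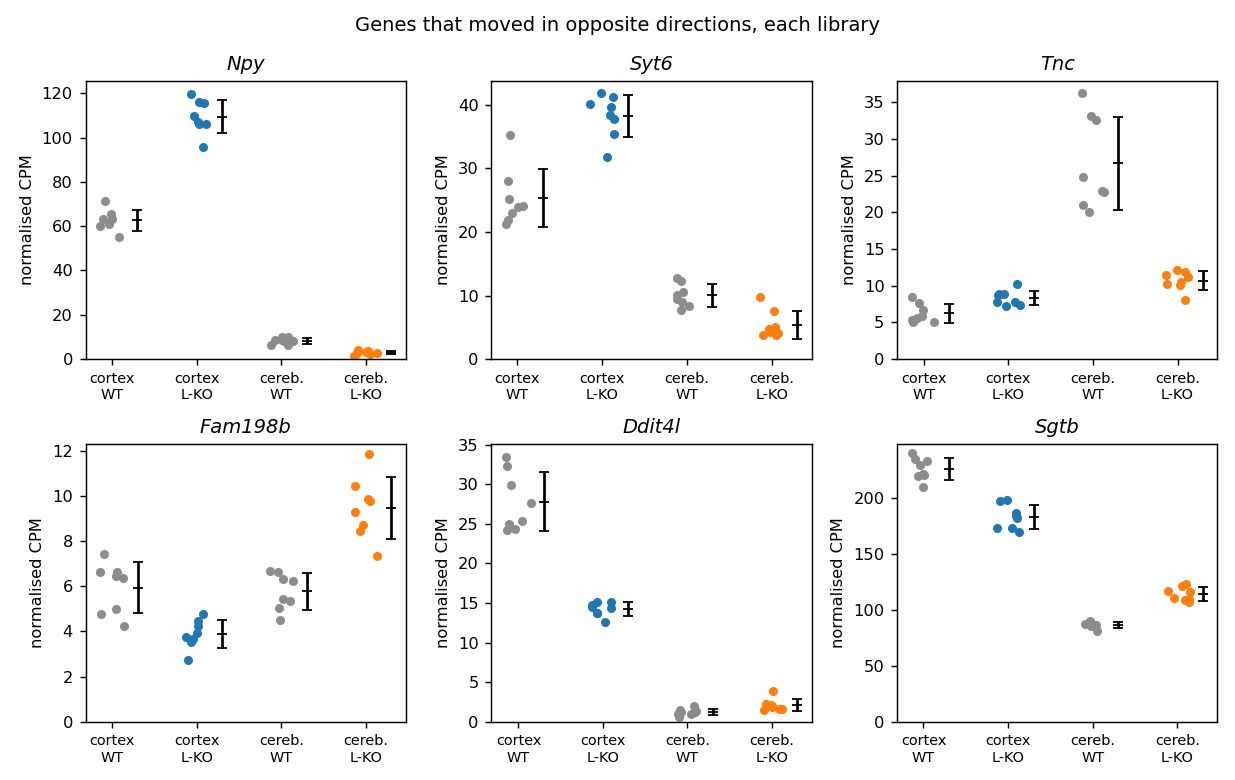
Normalised CPM of 6 genes that changed in opposite directions, 1 point per library in 4 groups of 8 (grey WT, blue and orange Cic-L-KO), with the mean and SD beside each group and the y axis from 0. Npy, Syt6 and Tnc are higher in Cic-L-KO cortex and lower in Cic-L-KO cerebellum, and Fam198b, Ddit4l and Sgtb the reverse.

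A same-direction change that was larger in cerebellum was found in 27 genes. The 5 with the smallest p for the difference, picked after the values were seen, were Rasal1, a RAS GTPase-activating protein gene (-0.35 ± 0.07 in cortex and -1.32 ± 0.09 in cerebellum), the active zone gene Rims2 (-0.10 ± 0.04 and -0.49 ± 0.04), the hypoxia-inducible factor gene Epas1 (0.24 ± 0.05 and 0.54 ± 0.05), Sesn2, a stress-responsive gene (0.27 ± 0.06 and 0.63 ± 0.06), and the cell cycle inhibitor gene Cdkn2c (0.66 ± 0.09 and 1.21 ± 0.09).

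For most known Capicua targets and ERK feedback genes the difference between the regions did not pass the test. Of 24 on the list, 11 rose and 4 fell in cortex, 9 rose and 2 fell in cerebellum, and 4 (16.7%, against 24.7% of all genes tested) passed the test of the difference. Of all genes tested, 20.6% rose and 21.8% fell in cortex, and 10.9% rose and 11.6% fell in cerebellum. Etv4, a PEA3 family transcription factor gene, rose in both regions, from 10.8 ± 1.89 to 22.8 ± 1.57 CPM in cortex and from 18.2 ± 0.923 to 22.4 ± 2.09 CPM in cerebellum (difference 0.78 ± 0.11, edgeR adjusted p = 6.3e-07). Spred3, an inhibitor gene of the RAS to ERK cascade, ran at 49.2, 62.9 and 71.8 CPM in WT cortex and 84.9, 92.5 and 98.8 CPM in Cic-L-KO cortex (lowest, median and highest), with no overlap, and at 25.4 ± 2.72 and 26.9 ± 2.81 CPM in cerebellum. Zfp365 changed by -0.23 ± 0.05 in cortex alone, and Gpr3, a G protein-coupled receptor gene, rose by 0.98 ± 0.15 in cerebellum with a cortical log2 fold change of 0.17 ± 0.14. Maff, a small Maf factor gene taken up after its values were seen because its promoter holds an octamer, rose without overlap in both regions (2.09 ± 0.15 and 2.503 ± 0.16), and its difference of -0.41 ± 0.22 did not pass (edgeR adjusted p = 0.167).

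The promoter of Spred3 is shown because it is the member of the target list with a region difference whose RefSeq window (250 bases before to 50 after the start) holds a Capicua octamer. The 250 bases before the start (GRCm38.p6) are printed. The capitals mark TGAATGAA, and Spred3 lies on the same chromosome as Cic, at chromosome 7, 29158829 to 29170411.
Spred3, chr7:29168648-29168897, - strand: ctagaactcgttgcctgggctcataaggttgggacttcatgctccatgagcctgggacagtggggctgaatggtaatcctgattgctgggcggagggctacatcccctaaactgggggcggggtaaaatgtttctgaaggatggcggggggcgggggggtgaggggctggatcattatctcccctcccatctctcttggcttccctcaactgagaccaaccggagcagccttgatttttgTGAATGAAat
The search covered TGAATGAA and TGAATGGA on both strands. Either was found in 2.47% of all 32851 RefSeq windows, in 1.67% of the windows of tested genes, and in 1.3% of those of genes that changed in cortex only, 2.37% of those that changed in cerebellum only and 1.14% of those that changed in opposite directions. Apart from Spred3 and Maff, the windows of Kcnip1 and Grb2, both changed in cortex only, held one among the genes named by rule. A match is a stretch of letters and not a measured site.

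Receptors and adhesion proteins of neurons were weighted towards a more negative effect in cortex. Among 45 neuropeptide and monoamine receptor genes, 15 were more negative in cortex and 1 more positive, against 12.1% and 12.7% of all genes tested, with a median difference of -0.37 beside -0.01 over all genes. In cortex 15 of them fell and 4 rose, and in cerebellum 3 fell and 6 rose. The histamine receptor gene Hrh3 fell from 44.6 ± 6.04 to 26.7 ± 2.05 CPM in cortex, with 8.905 ± 0.407 and 8.67 ± 1.08 CPM in cerebellum. Crhr1, the receptor gene for corticotropin-releasing hormone, fell in both, by 0.81 ± 0.08 and 0.20 ± 0.07. The somatostatin receptor gene Sstr2 changed by -0.61 ± 0.14 in cortex and 0.76 ± 0.25 in cerebellum, the neuropeptide Y receptor gene Npy1r by -0.40 ± 0.10 and 0.50 ± 0.15, and the adrenergic receptor gene Adra1d by -0.49 ± 0.09 and 0.36 ± 0.11. Without the 3 libraries high in brainstem markers the cerebellar rises did not pass for Sstr2 (0.49, edgeR adjusted p = 0.202), Npy1r (0.36, 0.0884) and Adra1d (0.28, 0.0979), nor did the cerebellar fall of Crhr1 (-0.12, 0.235), and 3 receptor genes rose there instead of 6. The exception was Vipr1, lower in cerebellum as given above.

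Of 25 glutamate receptor genes, 10 were more negative and 3 more positive in cortex (52% in all, against 24.7% of all genes tested). Grin2b, an NMDA receptor subunit gene, fell from 721 ± 76.8 to 567 ± 55.4 CPM in cortex and rose from 37.2 ± 1.99 to 52.3 ± 7.22 CPM in cerebellum (difference -0.84 ± 0.10, edgeR adjusted p = 1.0e-07). Grin2c, the NMDA receptor subunit gene typical of granule cells, changed the other way, by 0.24 ± 0.09 in cortex and -0.24 ± 0.09 in cerebellum. Without the 3 libraries its cerebellar change was -0.15 and did not pass (edgeR adjusted p = 0.209), and with GC content adjusted its cortical change was 0.17 and did not pass (edgeR adjusted p = 0.106). Grm3 (-0.58 ± 0.05) and Gria3 (-0.43 ± 0.04) fell in cortex, with cerebellar values of 0.10 ± 0.05 and 0.04 ± 0.04. Among 20 GABA and glycine receptor genes, the 6 with a region difference were all more negative in cortex (30%, against 12.1% of all genes tested). They included Gabra4, which fell in both regions (-0.62 ± 0.06 and -0.18 ± 0.06), and Glrb (-0.35 ± 0.04 and -0.06 ± 0.04). The cerebellar fall of Gabra4 did not pass with GC content adjusted (-0.11, edgeR adjusted p = 0.160), and without the 3 libraries that of Glrb did (-0.11, edgeR adjusted p = 0.0493).

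Potassium channels split almost evenly. Of 53 genes, 14 were more positive in cortex (26.4%, against 12.7% of all genes tested) and 12 more negative (22.6%, against 12.1%). Opposite directions were found in 7 of the 53 (13.2%, against 2.42% of all genes tested), and in 5 without the 3 libraries high in brainstem markers. Kcns2, a modifier subunit gene, fell by 0.58 ± 0.07 in cortex and rose by 0.40 ± 0.07 in cerebellum, and Kcnq3, a subunit gene of the M current, fell by 0.33 ± 0.05 and rose by 0.35 ± 0.06. Kcnc1, a channel gene of fast-spiking neurons, went the other way at 0.27 ± 0.05 and -0.26 ± 0.05. Kcnk10 and Kcnip1 rose in cortex, by 0.95 ± 0.08 and 0.55 ± 0.05. Among 33 sodium and calcium channel genes 10 were more negative in cortex (30.3%, against 12.1% of all genes tested) and 4 more positive (12.1%, against 12.7%). Cacna1c changed by 0.17 ± 0.06 in cortex and -0.33 ± 0.06 in cerebellum.

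Of 49 synaptic adhesion genes 15 were more negative in cortex (30.6%, against 12.1% of all genes tested) and 6 more positive (12.2%, against 12.7%). Nlgn1, a postsynaptic neuroligin gene, fell by 0.61 ± 0.05 in cortex against -0.04 ± 0.05 in cerebellum, and Adgrl3 and Cntn4 fell in cortex (-0.15 ± 0.04 and -0.17 ± 0.05) and rose in cerebellum (0.24 ± 0.04 and 0.28 ± 0.05). With GC content adjusted the cortical fall of Cntn4 did not pass (-0.09, edgeR adjusted p = 0.112). The list of copines, tetraspanins and calcium sensors, proteins of membrane traffic and calcium binding, had 18 more negative and 7 more positive of 45. That is 55.6%, against 24.7% of all genes tested. Within it the copine genes behaved unlike each other: Cpne9 fell by 0.94 ± 0.07 in cortex, with -0.08 ± 0.07 in cerebellum, whereas Cpne4 rose in cerebellum, from 1.31, 2.405 and 5.45 CPM (lowest, median and highest) in WT to 5.96, 6.43 and 9.02 CPM in Cic-L-KO, with a cortical log2 fold change of -0.20 ± 0.13. The highest WT value of Cpne4 was that of replicate 1, high in brainstem markers, and without the 3 such libraries its cerebellar change was 1.51 (edgeR adjusted p = 7.1e-08).

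Among 42 genes of the WNT pathway 13 were more negative in cortex (31%, against 12.1% of all genes tested) and 4 more positive (9.52%, against 12.7%). Rspo1, the gene of a secreted WNT agonist also used as a layer marker, fell in cortex from 9.66, 12.2 and 18.4 CPM (lowest, median and highest) to 1.105, 1.79 and 2.68 CPM with no overlap, and was under 1 CPM in all 16 cerebellar libraries. Wnt7a, a ligand gene, rose by 0.32 ± 0.08 in cortex and fell by 0.37 ± 0.08 in cerebellum. Fzd2, a receptor gene, rose in cerebellum by 0.53 ± 0.11 with -0.17 ± 0.10 in cortex. Of 58 axon guidance genes 12 were more negative in cortex (20.7%, against 12.1% of all genes tested) and 9 more positive (15.5%, against 12.7%). Among them the receptor gene Plxnd1 fell in cortex alone (-0.85 ± 0.07), and Sema3e, the gene of its ligand, rose in cerebellum alone (0.61 ± 0.07). Of the 26 cortical layer genes 9 were more negative in cortex (34.6%, against 12.1% of all genes tested) and 2 more positive (7.69%, against 12.7%). Calb1 and Rorb fell in cortex by 0.68 ± 0.07 and 0.48 ± 0.07, and in cerebellum, where Calb1 marks Purkinje cells, the values were -0.11 ± 0.07 and 0.07 ± 0.08. The summed level of 7 cortical excitatory markers ran from 2154 to 2369 CPM in WT cortex and from 1686 to 1943 CPM in Cic-L-KO cortex, with 4 of the 7 lower and 1 higher. In cerebellum the median sum was 863 CPM in WT and 733 CPM in Cic-L-KO, and 1 of the 7 had a region difference. Most of the cortical sum was Slc17a7, with a mean of 1677.5 CPM in WT cortex. Slc17a7 changed by -0.38 in cortex and -0.32 in cerebellum, and its difference did not pass (edgeR adjusted p = 0.588). In WT cerebellum Slc17a7 averaged 605 CPM and Neurod2 179 CPM. Slc17a7 was also 1 of 7 granule cell markers, of which 3 fell and 0 rose in cerebellum. Gabra6 (-0.38) and Neurod1 (-0.26, or -0.17 without the 3 libraries high in brainstem markers) also fell there. The part of these markers in the result was not tested.

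Housekeeping lists differed by region with small effects. All 14 ribosomal protein genes with a region difference were more negative in cortex (34.1% of 41 tested, against 12.1% of all genes tested). In cortex 31 changed and all fell, where 21.8% of all genes tested fell, while in cerebellum 4 fell and 1 rose. Rps27 changed by -0.30 ± 0.05 in cortex and 0.08 ± 0.05 in cerebellum, and Rps7 by -0.25 ± 0.06 and 0.14 ± 0.06. Ribosomal protein genes have many near-identical pseudogenes, so how reads were shared among copies is uncertain. Of 53 nuclear genes of oxidative phosphorylation 18 had a region difference, all more negative in cortex (34%, against 12.1% of all genes tested). In cerebellum, where 10.9% of all genes tested rose, 25 changed and all rose. Without the 3 libraries high in brainstem markers 13 of the 53 had a region difference and 19 rose in cerebellum. In cortex 6 rose and 10 fell, no larger a share than the 20.6% and 21.8% of all genes tested. Cox6c, of respiratory complex IV, fell by 0.15 ± 0.05 in cortex and rose by 0.28 ± 0.05 in cerebellum, and Ndufa8, of complex I, rose by 0.18 ± 0.03 in cerebellum with -0.02 ± 0.03 in cortex. The cortical falls of Cox7b (-0.13) and Ndufa4 (-0.13) did not pass with GC content adjusted (-0.05 and -0.04, edgeR adjusted p = 0.339 and 0.465). Without the 3 libraries the cerebellar rise of Ndufa4 went from 0.14 to 0.09 and did not pass (edgeR adjusted p = 0.155). These genes are short, and over the 12079 genes above 2 CPM the cerebellar effect had a correlation across genes of -0.10 with the logarithm of exon length and the cortical effect one of 0.06. The part of length or GC content in these lists was not tested.

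The glial and vascular lists did not share a direction. Of 26 astrocyte and Bergmann glia genes, 8 were more positive in cortex (30.8%, against 12.7% of all genes tested) and 3 more negative (11.5%, against 12.1%). In cortex 13 of the 26 rose and 2 fell, where 20.6% and 21.8% of all genes tested did. In cerebellum 7 rose and 6 fell, where 10.9% and 11.6% did. Beside Etv4 and Tnc, Itih3 rose by 0.76 ± 0.06 in cortex and 0.18 ± 0.06 in cerebellum, and Aldh1l1, a widely used astrocyte marker, rose by 0.24 ± 0.04 in cortex and fell by 0.13 ± 0.04 in cerebellum. Without the 3 libraries high in brainstem markers the cerebellar change of Aldh1l1 was -0.10 and did not pass (edgeR adjusted p = 0.155). The cerebellar rise of Itih3 did not pass with Cic-S-KO libraries in the fit (edgeR adjusted p = 0.233). Nor did it with GC content adjusted (edgeR adjusted p = 0.0585) or with each region fitted alone (edgeR adjusted p = 0.0507). The gap junction gene Gja1 rose in both, by 0.17 ± 0.05 and 0.35 ± 0.05, and its difference did not pass without the 3 libraries (edgeR adjusted p = 0.0914). Among 7 astrocyte and Bergmann glia markers, Gja1 was the 1 that rose in cerebellum. Of the 7, 4 fell there, among them Aqp4 (-0.23), Slc1a3 (-0.16) and Gdf10 (-0.68). In cortex 2 of the 7 rose and 1 fell. Of 20 endothelial and mural genes 11 rose in cortex, where 20.6% of all genes tested rose, and 16 in cerebellum, where 10.9% did. A region difference was called for 4 of the 20 (20%, against 24.7% of all genes tested). All 4 had the larger rise in cerebellum or rose there alone: Flt1 (0.28 ± 0.05 and 0.54 ± 0.05), Cdh5 (0.23 ± 0.08 and 0.63 ± 0.08), Abcb1a and Egfl7. The summed level of 5 endothelial and mural markers was 130 to 192 CPM in WT cortex, 167 to 213 CPM in Cic-L-KO cortex, 94.9 to 128 CPM in WT cerebellum and 143 to 182 CPM in Cic-L-KO cerebellum. Of 31 oligodendrocyte and myelin genes 4 had a region difference, all more negative in cortex. That share of 12.9% was near the 12.1% of all genes tested. Of 21 microglia genes 7 rose in cortex and 9 in cerebellum. The edgeR test of the difference was passed by 0 of them, against 24.7% of all genes tested (2 by DESeq2, 2 at an unadjusted p under 0.05). Immediate early genes and glucocorticoid-responsive genes, which track activity and stress hormone, had 2 of 22 and 1 of 20 region differences. These shares, 9.09% and 5%, lay below the 24.7% of all genes tested.

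**Figure D4:**
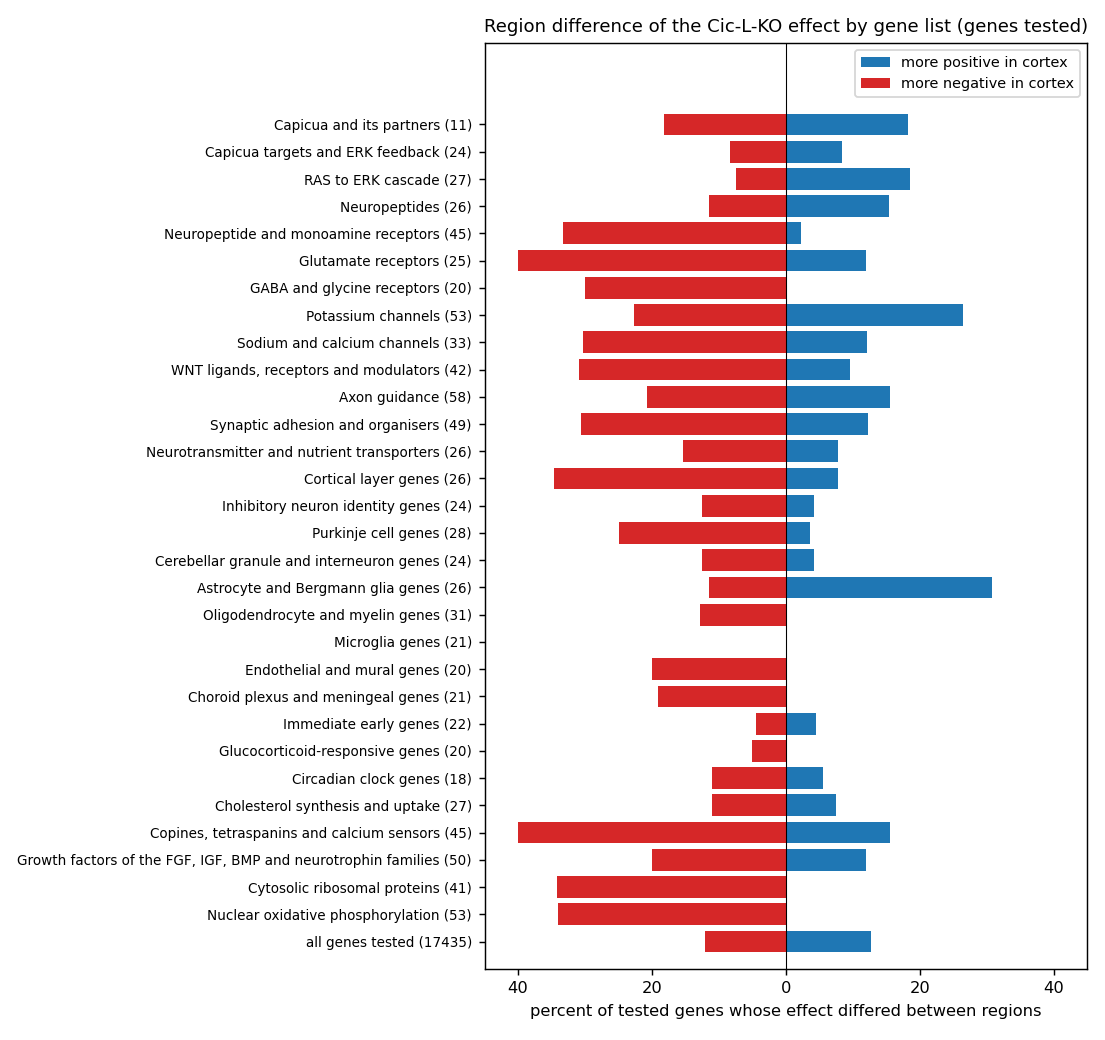
Share of the tested genes of each list whose Cic-L-KO effect differed between regions, with genes more positive in cortex to the right (blue) and more negative to the left (red); the number of genes tested is in parentheses and all genes tested are the last row. Receptor, adhesion, layer, ribosomal and oxidative phosphorylation lists extend mainly to the left, the astrocyte list mainly to the right, and the microglia list has no bar.

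The direction of the difference was also set beside the region in which a gene has its higher level. The ratio of levels in cortex and cerebellum was taken from the 14 Cic-S-KO libraries, 7 in each region, which have no part in the comparison. Those mice lack the short isoform, so the ratio need not be that of WT mice. Among the 10191 genes within 2-fold between the regions, 1433 were more positive and 1504 more negative in cortex. Of the 131 genes over 8-fold higher in cortex, 39 were more negative in cortex and 1 more positive, and the medians were -0.18 for the cortical effect, 0.22 for the cerebellar effect and -0.33 for the difference. Of the 62 genes over 8-fold higher in cerebellum, 15 were more positive in cortex and 7 more negative, with medians of 0.09, -0.05 and 0.18. Of the 136 genes 4 to 8-fold higher in cerebellum, 52 were more positive in cortex and 13 more negative, with medians of 0.15, -0.01 and 0.20. By these medians, genes of cortex were lower in Cic-L-KO cortex and higher in Cic-L-KO cerebellum, and genes of cerebellum were higher in Cic-L-KO cortex with a median near 0 in cerebellum. Without the 3 cerebellar libraries high in brainstem markers the medians of the 131 genes were 0.11 for the cerebellar effect and -0.22 for the difference. The correlation across the 12079 genes between this ratio and the difference was -0.25, a description only, since genes are not replicates.

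**Figure D5:**
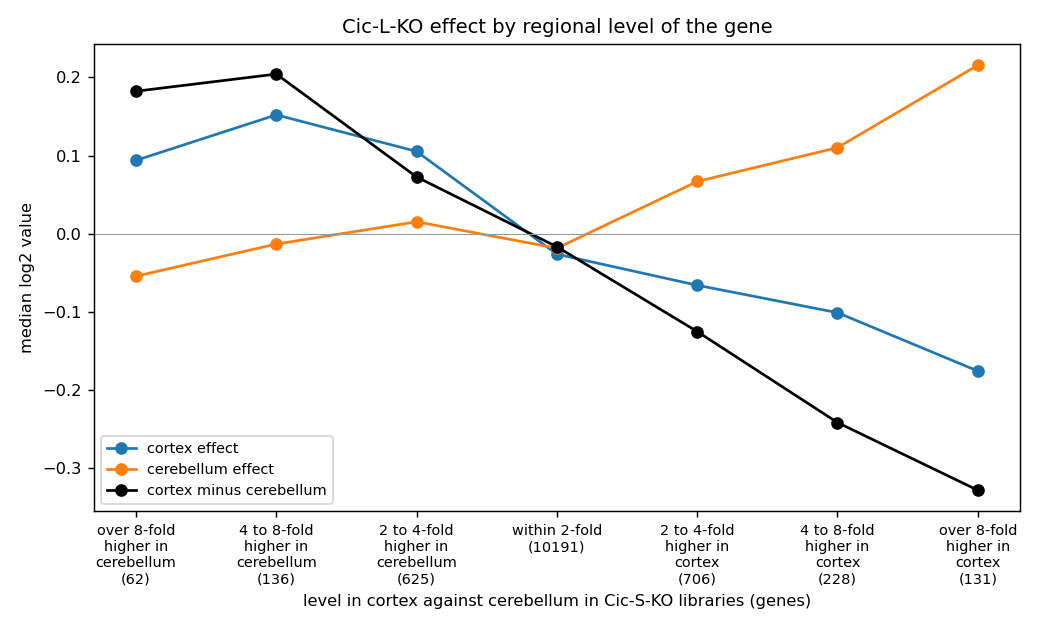
Median log2 Cic-L-KO effect in cortex (blue), in cerebellum (orange) and their difference (black), for 7 groups of genes ordered by their level in cortex against cerebellum in Cic-S-KO libraries, with the number of genes in parentheses. The black line falls from 0.18 for genes over 8-fold higher in cerebellum to -0.33 for genes over 8-fold higher in cortex.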

How the data were processed

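RNA was extracted from flash-frozen tissue with a miRNeasy Mini Kit, and libraries were made with selection of polyadenylated RNA by standard Illumina protocols, per the labels' protocols. The deposited values are raw counts of reads per gene, whole numbers for 50789 versioned Ensembl identifiers in 70 columns. Reads were aligned with STAR 2.7 to GRCm38.p6, per the submitters' processing notes. The counting program, annotation and use of strand are not given in the sources used here, so reads of overlapping or antisense genes cannot be told apart. Each column name matched the labels of 1 sample. Genes of chromosome 1 and some genes of chromosomes 17, 18 and 19 were not analysed here, which leaves several list members out. Identifiers were named by GENCODE M21 (GRCm38), where 50725 matched without the version and 64 did not.

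The 32 cortex and cerebellum libraries with 8 per group, at 20730808 to 31011694 counts each, were fitted in edgeR 4.0.16 (R 4.3.3) after its expression filter and TMM scaling, with robust quasi-likelihood dispersion and 1 mean per group. All p-values are from quasi-likelihood F tests of 3 contrasts of that fit with Benjamini-Hochberg adjustment over all 17435 genes tested, and SE values follow from the fold change and F. The CPM values use the TMM scaling and compare samples for 1 gene, not genes with each other. Depth limits genes near 1 CPM, where about 20 to 30 reads stand behind a value. No replicate pair differed by less than counting noise (chi-square per degree of freedom at least 4.09 in 112 pairs). The fit was tested on simulated counts.

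Genes were named by rule: Cic, Atxn1 and Atxn1l, the 8 smallest p for the difference in each direction among genes of at least 1 CPM in a group, the 6 largest opposite changes of each pattern by the smaller of the 2 effects, the 6 largest changes in each direction of the narrower groups, and up to 4 genes of each of 30 lists with the smallest p for the difference; a few further list members are named from the same tables after their values were seen. The comparison, the lists and the rules were chosen with earlier results of these data known. Alternatives were DESeq2 1.42.0, other scalings, filters and thresholds, Cic-S-KO libraries in the fit, a covariate for Y-linked expression, a test without the genes 10 Mb or less from Cic, and a replicate block. Added after seeing the data were fits without the 3 cerebellar libraries high in brainstem markers, with exon length or GC content adjusted, and with each region alone.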

Additional observations from a re-analysis of the deposited data

Results flagged for a closer look

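The difference between regions itself passed its test for 4311 genes, and each named gene of the smallest p-values or the largest opposite changes is listed here because its effects in the 2 regions differed. Differences of log2 fold changes, cortex minus cerebellum, were 3.55 for 5930438M14Rik, 2.95 for Slc29a4, 2.35 for Npy, 2.05 for Rreb1, 1.61 for Pdlim3, 1.61 for Gm37776, 1.59 for Gm44559, 1.49 for Syt6, 1.46 for Trim67, 1.22 for Gm44103, 1.01 for Epb41, 1.01 for Samd14, 0.93 for Sema5a, 0.74 for Cic and 0.54 for Atxn1. On the negative side they were -2.61 for Tspan11, -1.80 for Pamr1, -1.74 for Ddit4l, -1.50 for Chrna3, -1.45 for Igfbp6, -1.40 for Cdkl4, -1.32 for Fam198b, -1.32 for Prdm6, -1.29 for Dpp4, -1.24 for Lhpp, -0.90 for Arhgap32, -0.70 for Sgtb, -0.56 for Pfkl and -0.53 for Sms.

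Single libraries stood apart from the other 7 of their group in 6 of 120 group and gene combinations examined, and about 6 are expected by chance. Ddit4l was at 3.92 CPM in cerebellum of Cic-L-KO replicate 4, against 1.54 to 2.19 CPM in the rest. Chrna3 was at 5.28 CPM in the same library, against 1.66 to 3.14 CPM, and at 2.43 CPM in cortex of WT replicate 1, against 0.991 to 1.66 CPM. Pdlim3 was at 3.59 CPM in cerebellum of WT replicate 8, Gm37776 at 0.266 CPM in cerebellum of WT replicate 6, and Cdkl4 at 18.4 CPM in cortex of Cic-L-KO replicate 8. Cic-L-KO replicate 4 of cerebellum also had the highest sum of brainstem markers, at 174.7 CPM, and its part in the values of Ddit4l and Chrna3 was not tested beyond the fit without it.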

How the results depend on the processing

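Over 13 alternatives at the same threshold the number of genes with a region difference stayed between 3816 and 4719 around 4311, that of cortex between 6572 and 7692 around 7382, and that of cerebellum between 3019 and 4148 around 3920. Genes changed in cortex only numbered 2391 to 2861 (2687 as reported) and those changed in cerebellum only 492 to 764 (669), over 14 alternatives. The opposite-direction count was 268 without a filter on low counts, against 422, with 261 genes in common, and 307 without the 3 cerebellar libraries high in brainstem markers, with 265 in common. Asking for an absolute log2 value of at least 0.5 lowered the counts to 1477 for the difference, 1941 for cortex, 567 for cerebellum, 41 for opposite directions, 900 for cortex only and 123 for cerebellum only.

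For the 151 named genes, 10 of these alternatives were also read gene by gene. The region difference kept its direction in all 1510 values and passed in 1495. Of 81 cerebellar calls, 10 did not pass without the 3 libraries, 7 (of 80 tested) with the replicate block, 6 with each region fitted alone and 5 with GC content adjusted. Of 121 cortical calls, 6 did not pass with GC content adjusted and 4 with the block, and no call changed sign in these 10 fits. Those lost in 3 or more fits were the cerebellar calls of Aldh1l1, Crhr1, Gabra4, Gm37776, Grin2c, Itih3 and Prdm6, so that their class in both regions depends on the fit.

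Same-numbered cortex and cerebellum libraries of a genotype had a correlation of deviations over 0.1 in 7 of 16 pairs, from -0.02 to 0.18, and 5 correlated best with their own number. Same-numbered WT and Cic-L-KO libraries, which are different animals, did so in 1 of 8 pairs in cortex and 0 of 8 in cerebellum. The labels do not say whether a number marks an animal, and these values do not settle it. The main fit did not pair libraries, so an animal shared between regions would not be accounted for there. With a replicate block of same-numbered cortex and cerebellum libraries the difference was called for 4444 genes, 4051 of them in common. The block within each region instead joined WT and Cic-L-KO libraries of the same number, which are different animals, and gave 6896 cortical and 3019 cerebellar calls. Region calls lost with it are therefore no measure of pairing by animal. With both blocks, added after seeing the data, 301 genes changed in opposite directions, 271 of them in common, 2690 in cortex only and 599 in cerebellum only. Changes under about 0.2 on the log2 scale lie close to the median SE of the difference, 0.115.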
